A study of Mus musculus with 3 samples.

Results

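The canonical Wnt target genes described here are Axin2, Lef1, Tcf7, Nkd1, Notum, Apcdd1, Lgr5, Rnf43, Znrf3 and Sp5, 10 of the 27998 genes listed in the files, all found by symbol. They were chosen by name, not by a measured value, and their levels were read in every cell class of 3 single-cell RNA libraries made with Chromium 3′ chemistry (version 3). The libraries hold CD45-negative lung cells of MMTV-HER2/Neu mice on the FvB background, a strain in which the HER2/Neu oncogene is driven by the mouse mammary tumour virus promoter, so that all groups carry the transgene and none is a wild-type control. The early HER2-negative library holds CD45-negative HER2-negative cells, which the submitters call non-cancer, from mice of 14 to 18 weeks with no palpable tumour. The early HER2-positive library holds CD45-negative HER2-positive cells from the same age and stage. The late HER2-positive library holds CD45-negative HER2-positive cells from mice older than 20 weeks with a primary tumour, and the submitters call both HER2-positive sorts breast cancer cells. Each group is 1 library, the number of mice behind it is not given in the sources used here, and sort, stage, age and animal cannot be told apart from library. They are called the negative, early and late libraries below. No test between groups was therefore made, and intervals below are 95% intervals for counting error only.

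Wnt ligands bind Frizzled receptors and Lrp5 or Lrp6 co-receptors, which stops the destruction complex from degrading beta-catenin. Beta-catenin then enters the nucleus and acts with TCF/LEF factors on target genes. Many of these targets feed back on the pathway itself, and in the lung the pathway is known for its roles in alveolar epithelial cells and in the mesenchyme around them.

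Cells were placed in classes by marker rules, described with the processing, and 6416, 7622 and 6012 cells were kept in the negative, early and late libraries. Their median depth was 3166, 5318.5 and 8075 unique molecular identifiers (UMIs). The negative library was mostly endothelial (5186 cells), and the early and late libraries mostly alveolar type 2 (3939 and 3996 cells), against a label of breast cancer cells. A mammary class, with the milk protein and luminal genes Lalba, Csn1s1, Csn1s2a, Gata3, Trps1, Folr1 and Elf5 all detected, held 161 late cells. None of 7622 early cells met its rule, which allows a share of up to 0.0484%. Independent markers of alveolar type 2, endothelial, smooth muscle, pericyte and fibroblast cells were detected in full in the class of that name in every library. The class set by Hhip also carried the fibroblast markers, at a sum of 8797 to 12517 CPM, and is called here by its rule. Cells that met more than 1 rule made up 4.36%, 17.7% and 12.2% of the 3 libraries. Within classes, they were 75.3%, 78.2% and 85.7% of the Hhip class, 86%, 70.6% and 80.9% of smooth muscle and 45.9%, 41.3% and 50.9% of pericytes. Libraries shared at most 18 cell barcodes.

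Levels are given as CPM, the UMIs of a gene per 1000000 UMIs of the class. A 3′ library counts 1 tag per transcript, so no length correction was applied when genes are set side by side. The members ranged from 15960 counts for Nkd1 over the 3 libraries to 44 for Apcdd1. Axin2, Znrf3, Tcf7, Lef1 and Sp5 had 2220, 1993, 1464, 1244 and 1170 counts, Rnf43 892, Notum 785 and Lgr5 145.

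TCF/LEF factors, among them the members Lef1 and Tcf7, bind a short DNA motif, searched here on both strands as CTTTGAA and as CTTTGAT, and as CTTTGTA and as CTTTGTT in the 250 bases before each annotated start (RefSeq, GRCm38.p6). A table of promoter windows held 6 of the 10 members: Axin2, Lef1, Tcf7, Nkd1, Rnf43 and Sp5. Sp5, which encodes a zinc-finger transcription factor, held 2 matches, CTTTGTT on the minus strand 222 bases before the start and CTTTGAT on the plus strand 104 bases before it. The other 5 windows held none. Lef1, Tcf7 and Rnf43 have 4, 2 and 2 windows in the table, and for each the 1 nearest the GENCODE start was searched. The window of Lef1 ends 148 bases from that start. Those of Rnf43 and Nkd1 end 365 and 6279 bases from it, and both lie inside the gene. Of all 32851 windows of this length, 14.8% held at least 1 match and 1.43% at least 2. A match is a description of letters and not a measured binding site. The window of Sp5 (chr2:70474673-70474922, plus strand) is shown for its matches, in capitals, and the window of Axin2 (chr11:108920099-108920348, plus strand) as the member most used as a read-out of the pathway, with no match.
Sp5: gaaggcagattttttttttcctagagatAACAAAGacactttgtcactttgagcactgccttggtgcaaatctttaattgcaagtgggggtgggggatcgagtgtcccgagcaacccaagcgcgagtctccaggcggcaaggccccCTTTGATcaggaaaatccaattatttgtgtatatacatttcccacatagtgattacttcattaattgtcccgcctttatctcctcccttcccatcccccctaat
Axin2: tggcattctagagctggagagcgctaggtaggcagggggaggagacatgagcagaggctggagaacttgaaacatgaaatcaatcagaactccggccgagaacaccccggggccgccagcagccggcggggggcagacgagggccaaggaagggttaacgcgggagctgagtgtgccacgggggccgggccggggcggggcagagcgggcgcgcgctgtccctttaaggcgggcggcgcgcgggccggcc

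The 10 genes did not share one cell class. Lef1, Tcf7 and Axin2 were highest in pericytes, Nkd1 in endothelial cells, Lgr5 in the Hhip class, Sp5 in alveolar type 2 cells and Rnf43 in epithelial classes. Pericytes were the highest class for 3 of the 8 members with at least 10 counts in the negative library, 4 of 10 in the early and 4 of 8 in the late library. Over all genes with at least 10 counts, pericytes were the highest class for 22.7%, 15.2% and 15.1% in the same order. No member was highest in smooth muscle, ciliated or mammary cells. Smooth muscle was the highest class for 20.1%, 7.09% and 7.92% of all genes, ciliated cells for 22.9% and 19.5% in the early and late libraries and mammary cells for 14.1% in the late one. The heat map of levels by class shows these separate patterns.

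**Figure D1:**
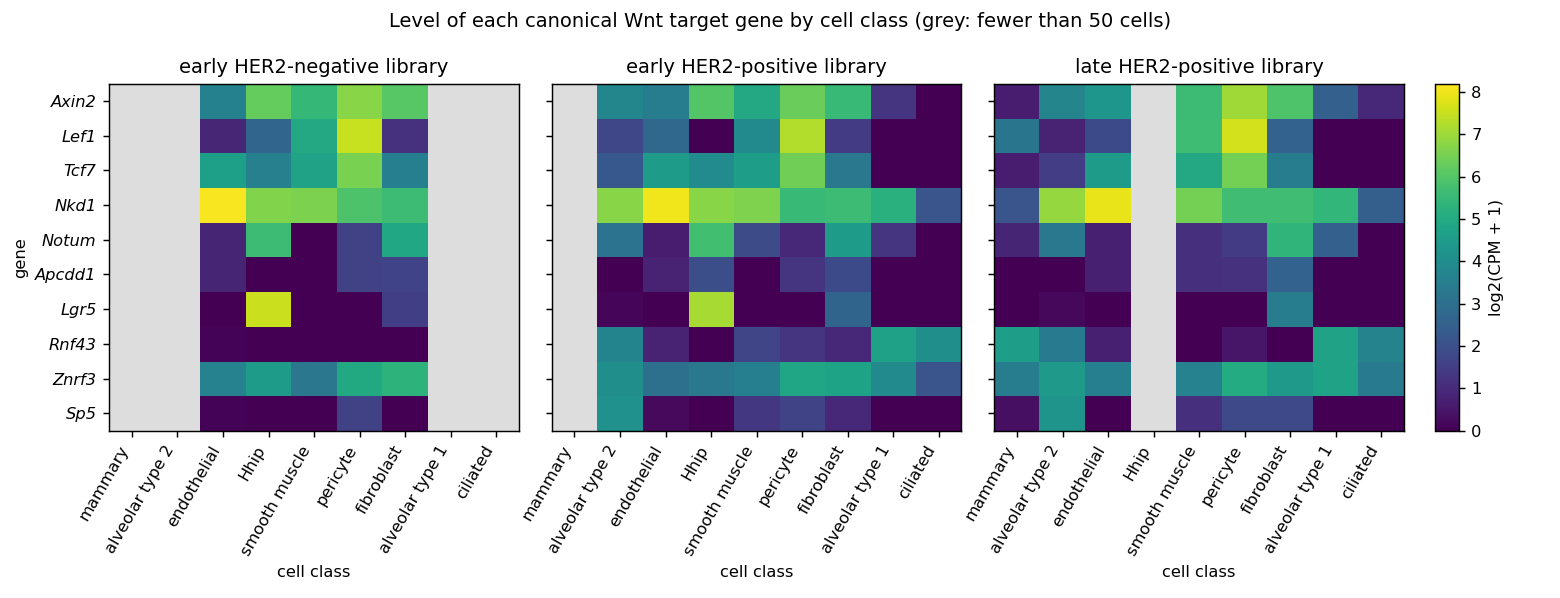
Level of each of the 10 genes (rows) in each cell class (columns) of the 3 libraries, as log2(CPM + 1) by colour; grey columns are classes with fewer than 50 cells. Lef1 peaks in pericytes, at 182, 152 and 197 CPM, and Nkd1 in endothelial cells, at 275, 261 and 242 CPM.

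Lef1 (ENSMUSG00000027985, chromosome 3, 131110471 to 131224356, plus strand, GRCm38) encodes one of the DNA-binding partners of beta-catenin. In pericytes, the contractile cells that wrap capillaries, it stood at 182 CPM (146 to 224) in the negative, 152 (137 to 169) in the early and 197 (180 to 216) in the late library. Smooth muscle followed, with 7 counts in its 50 cells of the negative library, 13.9 CPM in the early library and 49.3 CPM in the late one. Pericytes held 73.2%, 68.8% and 75.5% of all Lef1 counts, while they were 2.31%, 10.0% and 10.5% of cells. Within each library the pericyte level was above that of smooth muscle, 6.07-fold (2.83 to 15.5), 10.9-fold (7.77 to 15.8) and 3.99-fold (3.16 to 5.11). After each cell was thinned to 1000 UMIs, 22.3%, 14.5% and 16.1% of pericytes had a Lef1 UMI, against 0.203% of early and 0% of late alveolar type 2 cells. Before thinning, the shares were 39.9%, 32.9% and 47.5% of pericytes, whose median depth was 3278.5, 2823 and 3667 UMIs, and 1.35% and 0.576% of alveolar type 2 cells at 7138 and 8837. Lymphocytes also express Lef1 and Tcf7, and the defining T cell genes Cd3d, Cd3e and Cd3g had no count in the pericyte class of any library. Of the 11 leukocyte markers, 1, 3 and 2 had a count there, at a summed level of 3.35 to 4.04 CPM. A gene on the opposite strand of Lef1, Gm43352, had 68 counts over the 3 libraries, and since the sources used here do not state how strand was counted, reads of the pair cannot be told apart.

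Tcf7 (ENSMUSG00000000782, chromosome 11, 52252371 to 52283014, minus strand) encodes T cell factor 1, of the same family. Its pericyte levels were 93.0 CPM (68.1 to 124), 84.7 (73.1 to 97.6) and 89.1 (77.6 to 102). These intervals overlap in all 3 libraries, and every one lies above those of all other classes of at least 50 cells. Smooth muscle stood at 25.7, 22.6 and 29.7 CPM and endothelial cells at 23.8, 21.7 and 22.1 CPM, and these neighbours in the order did not differ beyond their intervals. Smooth muscle cells that also met the pericyte rule had 42.4 and 55.3 CPM in the early and late libraries. Those that did not had 10.8 and 8.66 CPM, on 18 and 8 counts, beside 20.7 and 21.1 CPM in endothelial cells that did not. Pericytes exceeded endothelial cells 3.90-fold (2.81 to 5.30), 3.90-fold (3.13 to 4.86) and 4.02-fold (3.05 to 5.36), a near-constant ratio. Fibroblasts held 8.69 to 10.7 CPM and alveolar type 2 cells 3.83 and 1.80 CPM in the early and late libraries. Gm26551 on the same strand and A630014C17Rik on the opposite strand overlap Tcf7 and had 55 and 30 counts.

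Axin2 (ENSMUSG00000000142, chromosome 11, 108920349 to 108950783, plus strand) encodes a scaffold of the destruction complex that damps the pathway which induces it. Pericytes had 105 CPM (78.5 to 138), 78.9 (67.7 to 91.4) and 131 (117 to 146) in the negative, early and late libraries. Other mesenchymal classes were next, with the Hhip class at 75.8 and 63.6 CPM in the negative and early libraries and fibroblasts at 65.7, 46.1 and 60.1 CPM. The pericyte and Hhip levels did not differ beyond counting error, at a ratio of 1.39 (0.86 to 2.28) and 1.24 (0.793 to 2.03). Pericytes stood above fibroblasts 1.60-fold (1.16 to 2.18), 1.71-fold (1.25 to 2.37) and 2.18-fold (1.44 to 3.46). Pericytes that met no other rule had 77.7 CPM in the negative library, on 19 counts in 80 cells. That is nearer to the fibroblast level, and fibroblasts met no other rule. In the early and late libraries such pericytes had 74.1 and 129 CPM. Unlike those of Lef1, the Axin2 counts were spread over several classes, and their shares went with the cell mix. Fibroblasts held 42.1%, 6.84% and 2.56% of them in the negative, early and late libraries. Endothelial cells held 38.4% in the negative library, and alveolar type 2 cells 46.8% and 47.9% in the early and late ones.

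In alveolar type 2 cells Axin2 stood at 12.5 CPM (11.3 to 13.9) in the early and 12.3 (11.2 to 13.5) in the late library. Barcodes with 1 to 100 UMIs, which carry free RNA, had 11.3 and 16.7 CPM. Such values give the make-up of free RNA and not its amount in a cell. They do not show how much of the alveolar type 2 level is free RNA. Other epithelial classes of the same libraries had few counts, with 1 Axin2 count in 134 early and 2 in 56 late alveolar type 1 cells, none in 76 early and 1 in 116 late ciliated cells, and 2 in 161 mammary cells. The late alveolar type 1 level, 4.68 CPM (0.567 to 16.9), was not resolved from that of alveolar type 2. After thinning to 1000 UMIs, 1.35% and 1.0% of alveolar type 2 cells had an Axin2 UMI, against 8.26% and 10.7% of pericytes.

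**Figure D2:**
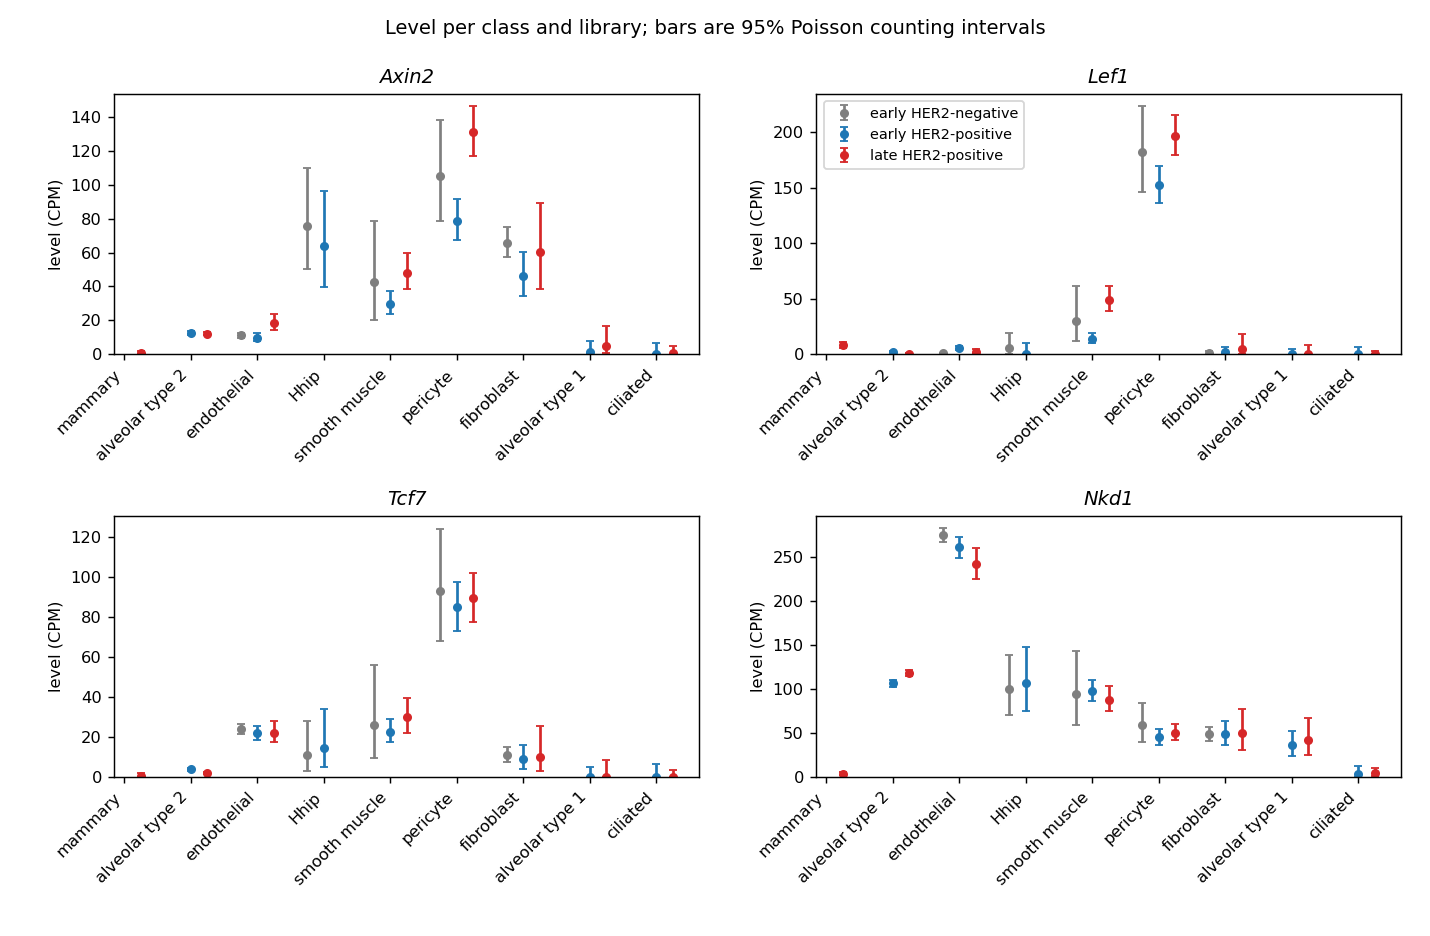
Levels of Axin2, Lef1, Tcf7 and Nkd1 in CPM (y axis) by cell class (x axis) in the 3 libraries, for classes of at least 50 cells; points are class sums and bars 95% Poisson intervals for counting error. Pericyte points are highest for Axin2, Lef1 and Tcf7, and endothelial points are highest for Nkd1.

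Nkd1 (ENSMUSG00000031661, chromosome 8, 88521354 to 88594884, plus strand) encodes a cytoplasmic inhibitor that binds Dishevelled, and was the most abundant member. Endothelial cells had 275 CPM (267 to 282), 261 (249.1 to 273) and 242 (225 to 260) in the negative, early and late libraries. They were its highest class in every library, as for 24.0%, 12.8% and 11.9% of all genes. Alveolar type 2 cells had 106 (103 to 110) and 118 (115 to 122) CPM, smooth muscle 88.0 to 97.6, and pericytes and fibroblasts 45.01 to 58.6. Endothelial cells exceeded alveolar type 2 cells 2.45-fold (2.31 to 2.60) and 2.05-fold (1.89 to 2.21). The lowest classes were mammary cells at 3.51 CPM (1.87 to 6.01) and ciliated cells at 3.51 and 4.55, both below the 111 and 104 CPM of low-UMI barcodes.

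Among endothelial cells, Nkd1 was uneven. Cells with at least 3 UMIs of Car4 and Ednrb, genes of the large aerocytes of the alveolar capillary, had 488 CPM (462 to 514), 437 (406 to 470) and 376 (334 to 421). Cells with at least 2 UMIs of Vwf, a gene of larger vessels, had 181, 119 and 93.5 CPM, and the remaining endothelial cells 241, 237 and 279. The order was the same in all 3 libraries and the intervals of the subsets did not overlap within any library. Tcf7 was also higher in the Car4 and Ednrb cells than in the Vwf cells, at 39.8 against 22.6, 27.9 against 15.2 and 35.7 against 8.76 CPM. Axin2 was lower in the Car4 and Ednrb cells than in the Vwf cells of the negative and early libraries, at 6.99 against 16.7 and 5.94 against 10.3 CPM. In the late library it stood the other way, at 21.7 against 16.6 CPM.

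**Figure D3:**
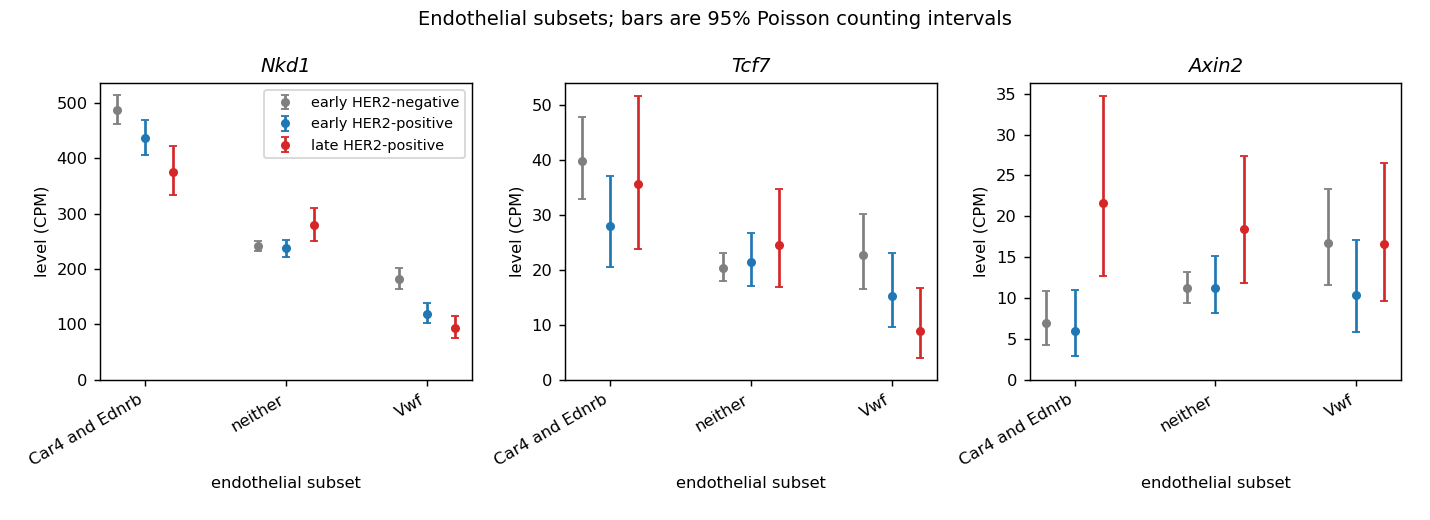
Levels of Nkd1, Tcf7 and Axin2 in CPM (y axis) in 3 subsets of endothelial cells (x axis: cells with Car4 and Ednrb, cells with neither set of genes, cells with Vwf) in the 3 libraries; bars are 95% Poisson intervals for counting error. Nkd1 steps down from 488, 437 and 376 CPM in the Car4 and Ednrb cells to 181, 119 and 93.5 CPM in the Vwf cells.

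Notum (ENSMUSG00000042988, chromosome 11, 120653788 to 120661175, minus strand) encodes a secreted enzyme that removes the lipid Wnt ligands need to bind Frizzled. The Hhip class had 48.7 CPM (28.9 to 77.03) and 52.1 (30.9 to 82.3) in the negative and early libraries, on 18 counts each. Fibroblasts had 28.9 (23.3 to 35.3), 21.7 (14.1 to 32.1) and 40.0 (22.9 to 65.0) CPM in the 3 libraries. The Hhip class was the highest in the negative and early libraries, as for 19.1% and 13.0% of all genes, and fibroblasts in the late one, as for 14.0%. Among cells that met 1 class rule, fibroblasts were highest in these as well. Alveolar type 2 cells held 76.8% and 87.4% of Notum counts in the early and late libraries, at a level of 7.67 (6.69 to 8.74) and 8.69 (7.76 to 9.70) CPM. Low-UMI barcodes had 5.29 and 6.88 CPM on 15 and 19 counts, which does not show how much of these levels is free RNA. Endothelial cells and pericytes were at or below 2.02 CPM. Notumos, on the opposite strand, had 33 counts.

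Apcdd1 (ENSMUSG00000071847), which encodes a membrane inhibitor of Wnt signalling, had 22, 13 and 9 counts in the 3 libraries. No class of at least 50 cells exceeded 5.01 CPM, which was 2 counts in late fibroblasts. None of 3939 early and 3996 late alveolar type 2 cells had an Apcdd1 UMI. Its order over classes could not be resolved at this depth.

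Znrf3 and Rnf43 encode related transmembrane ubiquitin ligases that clear Frizzled receptors from the cell surface, and their class patterns differed. Znrf3 (ENSMUSG00000041961, chromosome 11, 5276324 to 5444847, minus strand) was detected in every class of at least 50 cells. It stood at 30.3, 27.2 and 32.2 CPM in pericytes, 38.7, 26.1 and 20.0 in fibroblasts, and 15.9 (14.5 to 17.4) and 20.7 (19.2 to 22.2) in alveolar type 2 cells. Pericytes and fibroblasts did not differ beyond counting error in any library. Mammary cells had 10.0 CPM (7.04 to 13.8).

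Rnf43 (ENSMUSG00000034177, chromosome 11, 87662722 to 87735539, plus strand) was an epithelial gene in these libraries. It had 8 counts in the whole negative library, against 407 and 477 in the other two. Alveolar type 1 cells had 24.8 CPM (14.7 to 39.2) and 25.7 (12.8 to 46.0), ciliated cells 15.8 and 11.8, and alveolar type 2 cells 11.98 (10.8 to 13.3) and 9.32 (8.36 to 10.4). Alveolar type 1 was the highest class for Rnf43 in the early and late libraries, as for 13.6% and 13.4% of all genes. Its intervals overlapped those of the next class, ciliated cells in the early and mammary cells in the late library. The 161 mammary cells had 23.3 CPM (18.6 to 28.7) on 86 counts, 2.50-fold (1.95 to 3.17) above the alveolar type 2 cells of the same library. Endothelial, pericyte, smooth muscle and fibroblast cells were at or below 2.26 CPM in every library. Alveolar type 2 cells held 85.3% of the early and 71.5% of the late Rnf43 counts, and mammary cells 18.0% of the late ones. The early and late libraries had 3939 and 3996 alveolar type 2 cells, against 46 in the negative library. The part of this cell mix in the totals was not tested.

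Lgr5 (ENSMUSG00000020140, chromosome 10, 115450311 to 115587780, minus strand) encodes a receptor for R-spondins, which restrain the ligases above, and is best known as a stem cell marker of the gut. The Hhip class had 187 CPM (145 to 236) in the negative and 139 (102 to 184) in the early library. It held 92.0% and 85.7% of all Lgr5 counts while being 1.32% and 1.02% of cells. Fibroblasts were next at 1.84 and 5.22 CPM, on 6 counts each, so the Hhip class stood 101-fold (44.3 to 286) and 26.6-fold (11.4 to 76.1) higher. The late library had 7 cells of the Hhip class, with 5 Lgr5 counts, and 14 counts in all. Pericytes, smooth muscle and endothelial cells had no Lgr5 count in any library.

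Sp5 (ENSMUSG00000075304, chromosome 2, 70474923 to 70477729, plus strand), whose upstream window is printed above, was read almost only in alveolar type 2 cells. These had 16.6 CPM (15.1 to 18.1) in the early and 17.8 (16.4 to 19.2) in the late library, and held 96.4% and 97.9% of its counts. The 46 alveolar type 2 cells of the negative library had 6 counts, or 16.9 CPM (6.19 to 36.7), of the 8 in that library. The next class, pericytes, had 2.23 and 2.51 CPM on 5 and 6 counts, 7.44-fold (3.17 to 23.0) and 7.08-fold (3.23 to 19.4) lower. Alveolar type 2 was the highest class for 4.76% and 4.21% of all genes. After thinning, 1.62% and 1.40% of alveolar type 2 cells had an Sp5 UMI.

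Alveolar type 2 cells, the surfactant-making progenitors of the alveolus, therefore showed Nkd1 first, then Znrf3 and Sp5, and then Axin2, Rnf43 and Notum in the early and late libraries. Znrf3 and Sp5 did not differ beyond their intervals in the early library, and neither did Axin2 and Rnf43. Rnf43 had 9.18 and 8.69 CPM in low-UMI barcodes, and Nkd1 111 and 104 CPM, beside 106 CPM of Nkd1 in early alveolar type 2 cells. Such values give the make-up of free RNA, not its amount in a cell. Lef1 and Tcf7 were the lowest of the members with at least 10 counts in alveolar type 2 cells. Co-detection was sparse. After thinning, 53 early alveolar type 2 cells had an Axin2 UMI. Of these, 5 had Nkd1 (9.43%, 3.13 to 20.7), against 9.83% of those without Axin2. None of the 53 had Sp5 (upper bound 6.72%), against 1.65% of those without Axin2. In the late library, 2 of 40 such cells had Sp5 (interval 0.611% to 16.9%), against 1.37% of those without Axin2. Late Nkd1 was in 4 of the 40 (interval 2.79% to 23.7%), against 11.2%. All these intervals include the share without Axin2, so no difference was resolved. In the mammary cells, the class closest to the label of breast cancer cells, Rnf43, Znrf3 and Lef1 were read at 23.3, 10.0 and 8.11 CPM. Low-UMI barcodes of the late library had 11.2 CPM of Znrf3 and 9.06 of Lef1. These values do not show how much of the mammary levels is free RNA. Axin2 and Tcf7 had 2 counts each in the mammary cells, or 0.541 CPM, beside 16.7 and 6.88 CPM in the low-UMI barcodes. Lgr5 and Apcdd1 had none in the 3698511 UMIs of the mammary cells. Of the 30 Lef1 counts of mammary cells, 6 came from the 3 cells that also met the pericyte rule, and the other 158 cells had 6.88 CPM (4.41 to 10.2).

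The early and late libraries were compared within 5 classes of at least 50 cells, to describe how these genes stood in the lung before and after a primary tumour was found. A gene was called at a ratio of 1.5 or more with at least 10 counts in the pair of libraries. Of 50 gene and class pairs, 30 had enough counts, 3 were called higher in the early library and 6 lower. Over all genes, 10.9% to 17.7% were called higher, depending on the class, and 3.66% to 15.4% lower. The Wnt targets did not move together: Nkd1, Sp5, Rnf43, Znrf3 and Notum stayed within 1.5-fold in alveolar type 2 cells, and 6 of the 9 calls were of Axin2 or Lef1.

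**Figure D4:**
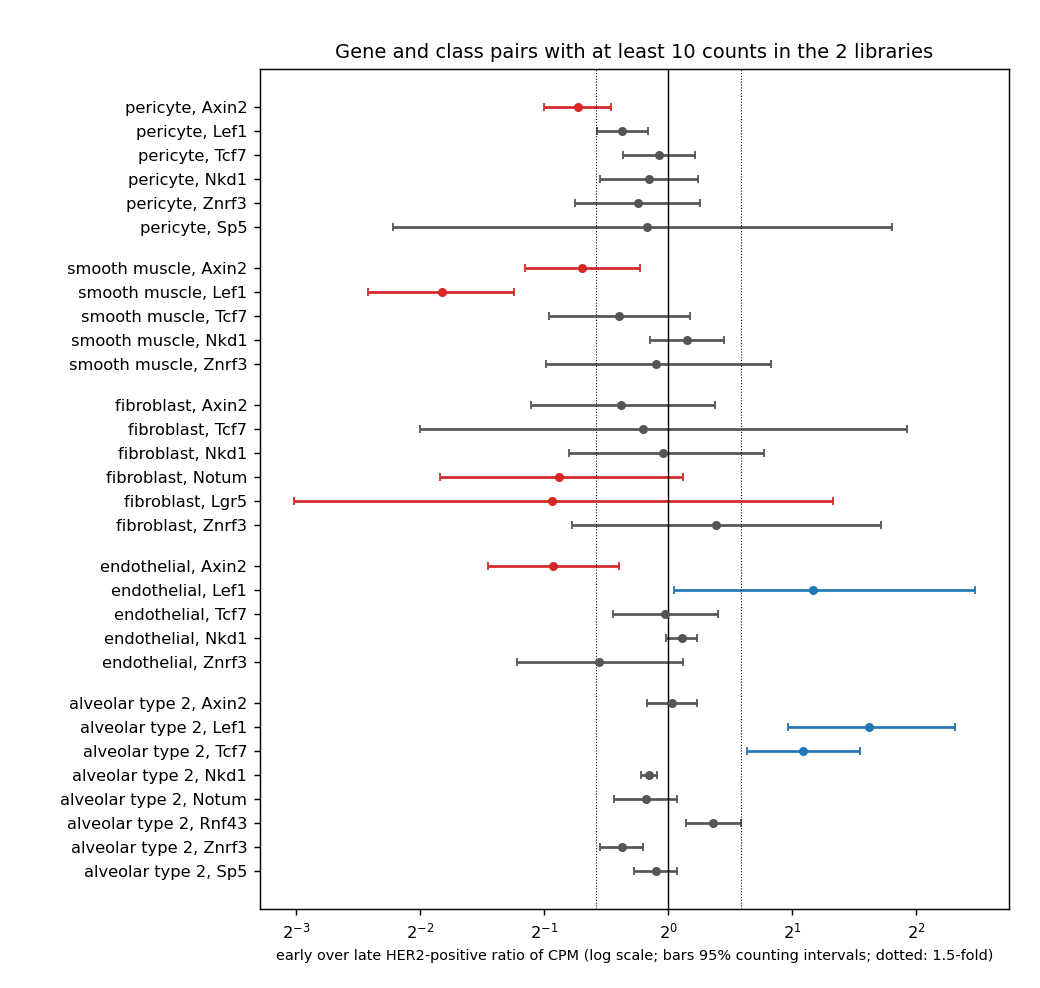
Early over late ratio of CPM (x axis, log scale) for each gene and class pair with at least 10 counts; bars are 95% conditional intervals for counting error, dotted lines mark 1.5-fold, blue points are called higher in the early library and red points lower. Axin2 in pericytes lies at 0.602, and Lef1 lies at 3.07 in alveolar type 2 cells and at 0.283 in smooth muscle.

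In pericytes, Axin2 was at 78.9 CPM in the early and 131 in the late library, a ratio of 0.602 (0.498 to 0.726), and the intervals of the levels did not overlap. It was 1 of 6 members tested that was called lower and none was called higher, where 7.22% of 11223 genes were called lower and 10.9% higher. Lef1 was at 152 against 197 CPM, a ratio of 0.773 (0.671 to 0.891) that was not called. Tcf7, Nkd1 and Znrf3 had ratios of 0.95, 0.896 and 0.844 with intervals that include 1. The smooth muscle markers summed to 2509 CPM in early and 1836 in late pericytes, the pericyte markers to 12828 and 12793, and their part in the Axin2 difference was not tested. Among the 448 early and 309 late pericytes that met no other rule, the Axin2 ratio was 0.574 (0.436 to 0.754), with 74.1 and 129 CPM.

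Axin2 was also called lower in early endothelial cells, at 9.78 against 18.6 CPM, a ratio of 0.526 (0.365 to 0.759), where 5.99% of genes were called lower and 12.4% higher. The ratio was 0.561 (0.360 to 0.880) without the endothelial cells that also met the pericyte rule. Low-UMI barcodes had 11.3 and 16.7 CPM of Axin2, which does not show how much of the endothelial levels is free RNA. The make-up of the class differed, with 291 of 1574 early and 158 of 490 late cells in the Vwf subset. The 3 lymphatic markers found summed to 776 CPM in early cells, with Prox1 and Mmrn1 at 0, and to 1493 CPM in late cells. Axin2 stood lower in the early library in each subset, at 5.94 against 21.7 CPM in the Car4 and Ednrb cells, 10.3 against 16.6 in the Vwf cells and 11.3 against 18.4 in the rest. The intervals of the levels overlapped in the Vwf cells and in the rest, and the part of the make-up in the difference was not tested. In smooth muscle, where 8.75% of genes were called lower and 13.1% higher, Axin2 was at 29.8 against 48.1 CPM, a ratio of 0.619 (0.448 to 0.854). Without the cells that also met the pericyte rule it was at 22.3 against 24.9 CPM, a ratio of 0.894 (0.517 to 1.58), and the call ended. It also ended with background RNA taken off, at 0.672.

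Lef1 differed in opposite directions between classes. Early over late, it was 2.35 against 0.765 CPM in alveolar type 2 cells, a ratio of 3.07 (1.95 to 4.95), and 5.75 against 2.57 CPM in endothelial cells, a ratio of 2.24 (1.03 to 5.54). In smooth muscle it was 13.9 against 49.3 CPM, a ratio of 0.283 (0.187 to 0.421). Tcf7 was called higher in early alveolar type 2 cells as well, at 3.83 against 1.80 CPM, a ratio of 2.12 (1.55 to 2.93), so that 2 of 8 members tested were called higher in that class, where 15.3% of genes were called higher and 3.66% lower.

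Pericyte transcripts in these classes also differed between the libraries, and their part in the Lef1 and Tcf7 differences was not tested. The 8 independent pericyte markers summed to 261 and 69.4 CPM in early and late alveolar type 2 cells, all 8 detected in both, and 5.10% and 1.60% of these cells also met the pericyte rule. Those 201 and 64 cells held 65 of the 68 early and 26 of the 28 late Lef1 counts of the class, at 29.7 and 32.8 CPM, a ratio of 0.906 (0.567 to 1.49). The remaining 3738 and 3932 cells had 3 and 2 Lef1 counts, or 0.112 and 0.0559 CPM. In endothelial cells, the 143 early cells that also met the pericyte rule held 35 of 40 Lef1 counts, and the rest had 5 and 4 counts in the early and late libraries. In smooth muscle, 338 early and 142 late cells that did not meet the pericyte rule had 1 and 0 Lef1 counts. The 223 and 157 that did had 36.3 and 109 CPM, a ratio of 0.332 (0.218 to 0.497). The pericyte markers of the whole smooth muscle class summed to 4196 CPM in the early and 5547 in the late library. In alveolar type 2, early endothelial and smooth muscle cells, most Lef1 counts thus lay in cells that also carried Higd1b or Cox4i2, the genes of the pericyte rule. In late endothelial cells 4 of the 8 counts did.
Tcf7 in alveolar type 2 cells was still higher in the early library without the cells that met the pericyte rule, at 2.58 against 1.37 CPM, a ratio of 1.88 (1.29 to 2.77). Both levels are below the 14.1 and 6.88 CPM of low-UMI barcodes.

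**Figure D5:**
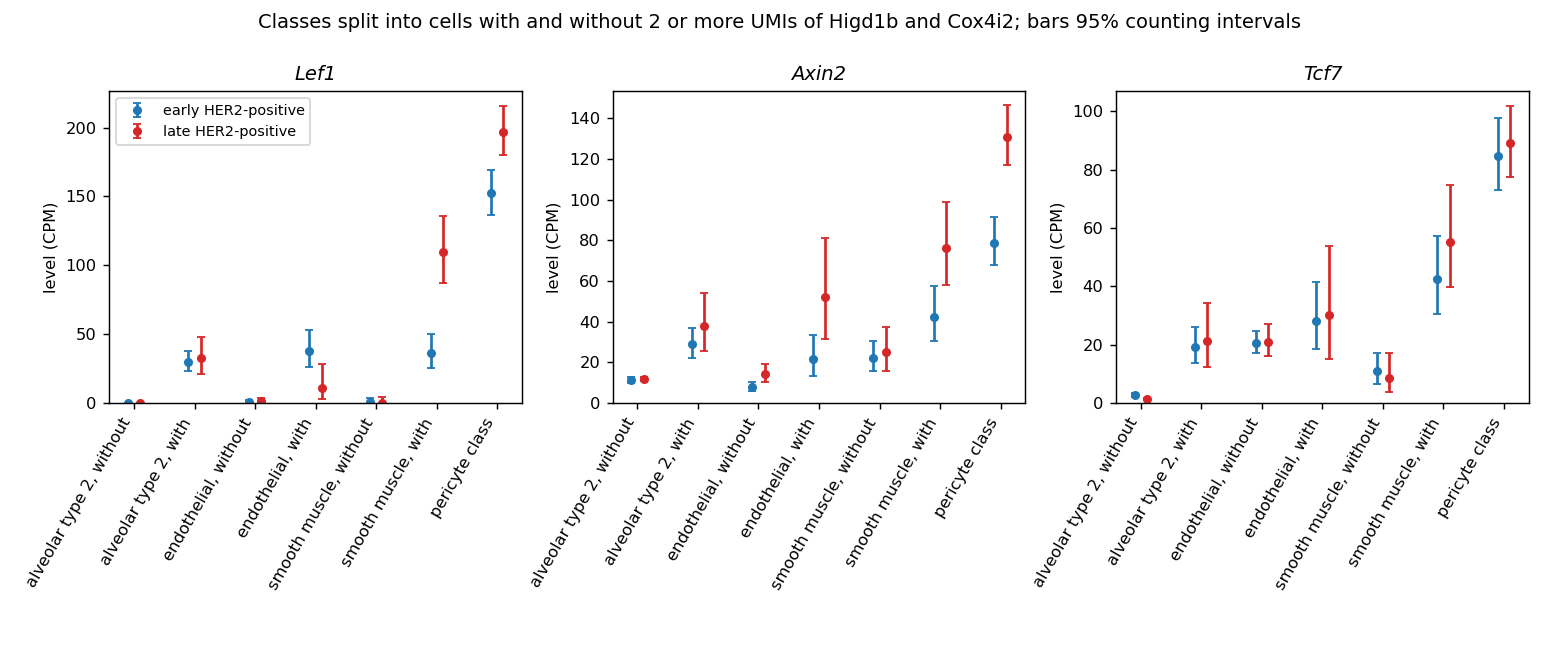
Levels of Lef1, Axin2 and Tcf7 in CPM (y axis) in alveolar type 2, endothelial and smooth muscle cells that did not (without) or did (with) also meet the pericyte rule, beside the pericyte class, in the early and late libraries; bars are 95% Poisson intervals for counting error. Lef1 lies between 0 and 1.45 CPM in all cells without the pericyte genes and between 10.96 and 109 CPM in cells with them.

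In fibroblasts, 15.4% of genes were called lower in the early library and 17.7% higher. Notum was at 21.7 against 40.0 CPM, a ratio of 0.543 (0.279 to 1.09), and Lgr5 had 6 against 4 counts, a ratio of 0.521 (0.124 to 2.51). Both intervals include 1, and 31.2% of the late Notum counts came from 1 of 72 cells. Without the cell with most counts in each library the Notum ratio was 0.695 and not called. Axin2 in fibroblasts was at 46.1 against 60.1 CPM, a ratio of 0.767 (0.465 to 1.30), and the late class was too small to resolve a difference of that size.

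Sp5 and Nkd1 in alveolar type 2 cells were close between stages, with early over late ratios of 0.933 (0.827 to 1.05) and 0.898 (0.857 to 0.941). Znrf3 was at 0.770 (0.685 to 0.866) and Rnf43 at 1.29 (1.10 to 1.497), within the 1.5-fold limit on counting intervals that exclude 1. Axin2 was at 1.02 (0.887 to 1.18). The median log2 ratio of the 8 members tested was -0.03, beside 0.10 over all genes of the class.

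The early and negative libraries, which were sorted from mice of one age, share the early library with the comparison above. Of 50 gene and class pairs, 29 had enough counts, 2 were called higher in the early library and 3 lower. Over all genes, 15.6% to 24.0% were called higher, depending on the class, and 6.71% to 16.3% lower. The levels of most members in a class differed less than 1.5-fold between the sorts. Tcf7 in pericytes had a ratio of 0.910 (0.657 to 1.285), Nkd1 in endothelial cells 0.95 (0.90 to 1.003) and Axin2 in pericytes 0.750 (0.548 to 1.04). Lgr5 in the Hhip class was at 139 against 187 CPM, a ratio of 0.743 (0.503 to 1.09). Axin2 in fibroblasts was at 46.1 against 65.7 CPM, a ratio of 0.701 (0.509 to 0.951) that was not called, and was called lower with edgeR TMM scaling, at 0.655.

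Lef1 in endothelial cells was called higher in the early library, at 5.75 against 0.857 CPM, a ratio of 6.71 (3.63 to 13.1), where 15.6% of genes were called higher and 6.71% lower. The pericyte markers also stood higher there, with all 8 detected and sums of 522 and 55.6 CPM. Their part in the Lef1 ratio was not tested. Without cells that met the pericyte rule, 5 and 4 Lef1 counts were left, in 1431 and 5158 cells. Lef1 in smooth muscle was called lower, with a ratio of 0.465 (0.205 to 1.24), where 16.3% of genes were called lower and 24.0% higher. The negative smooth muscle class had 50 cells and 7 Lef1 counts. Znrf3 was called lower in endothelial cells, at 7.19 against 11.4 CPM, a ratio of 0.629 (0.452 to 0.862), and the call ended with equal weight per cell, at 0.681. In the Hhip class Znrf3 had 3 against 8 counts (0.401, 0.0685 to 1.67), where 14.9% of genes were called lower and 16.9% higher. Lgr5 in fibroblasts had 6 counts in each library (2.83, 0.757 to 10.6), where 18.9% of genes were called higher and 13.8% lower. No member was called in pericytes, where 16.6% of genes were called higher and 10.3% lower. In alternatives, Lef1 was called lower there with cells of 1 class rule, at 0.666, and Nkd1 with background RNA taken off, at 0.553.

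The rest of the pathway was read from lists of ligands, R-spondins, receptors, secreted inhibitors, the destruction complex, nuclear partners and other reported targets. In the late library the ligands Wnt4 and Wnt5a were highest in pericytes, at 185 and 134 CPM, Wnt11 in ciliated cells at 115 CPM and Wnt7a and Wnt3a in alveolar type 1 cells at 53.8 and 49.1 CPM. Among receptors, Fzd4 was highest in endothelial cells at 242 CPM and Fzd1 and Fzd2 in fibroblasts at 170 and 103 CPM. Of the secreted inhibitors, Sfrp1 and Dkk2 were highest in fibroblasts at 463 and 238 CPM and Dkk3 in pericytes at 364 CPM. The R-spondin Rspo3 had 15 counts in late fibroblasts and Rspo1 16 in late alveolar type 1 cells.

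Between the early and late libraries, none of the 10 genes of the destruction complex was called in alveolar type 2 cells or in pericytes. Of the 11 nuclear partners, none was called in alveolar type 2 cells and 1 was called lower in pericytes. Over all genes, 15.3% were called higher and 3.66% lower in alveolar type 2 cells, and 10.9% and 7.22% in pericytes. Of the secreted inhibitors, 4 of 9 tested in fibroblasts were called lower in the early library and none higher, where 15.4% of all genes were called lower and 17.7% higher. Their median log2 ratio was -0.47 beside 0.01 over all genes. Dkk2, an antagonist of Lrp co-receptors, was at 18.3 against 238 CPM there, a ratio of 0.0768 (0.0454 to 0.124). Sfrp2, which binds Wnt ligands, was at 28.7 against 220 CPM, a ratio of 0.130 (0.0845 to 0.196). Wnt9a and Pygo2 were called higher on 13 against 1 and 18 against 2 counts, and Dvl2 had 15 against 0. The late fibroblast class has 72 cells, of which 23 met the split for Dpt and Pi16, against 101 of 239 early cells, and the part of this mix in the differences was not tested.

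In pericytes, 1 of 6 ligands tested was called lower, Wnt11 at 4.01 against 10.5 CPM, a ratio of 0.383 (0.157 to 0.849), and 1, Wnt6, was called higher on 12 against 8 counts, where 7.22% of all genes were called lower and 10.9% higher. Wisp2, a reported target, was at 9.80 against 2.09 CPM, a ratio of 4.69 (1.73 to 15.8). Fzd4, Tle2 and Fzd2 were called on 6 against 15, 8 against 15 and 8 against 2 counts, with intervals that include 1. In endothelial cells, where 5.99% of all genes were called lower and 12.4% higher, 4 of 7 secreted inhibitors were called lower, Sfrp1, Sfrp2, Frzb and Dkk2, the last at 3.45 against 10.6 CPM, a ratio of 0.326 (0.184 to 0.569), and Dkk3 was called higher on 127 against 30 counts. Wnt2, Fgf18, Fzd2 and Rspo1 were called higher there on 27 against 0, 15 against 0, 20 against 1 and 12 against 1 counts. Markers of other classes stood higher in these early endothelial cells too, with sums of 373 against 201 CPM for the fibroblast, 139 against 63.2 for the Hhip, 772 against 348 for the smooth muscle and 522 against 329 for the pericyte list. All markers of these lists were detected in the early cells, while Fgf18, Lgr6 and Lum had no count in the late ones, and their part in these calls was not tested.

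Alveolar type 2 cells had 5 of 10 ligands, 4 of 6 secreted inhibitors and 6 of 13 other targets called higher in the early library, where 15.3% of all genes were called higher and 3.66% lower. The ligand Wnt11, on 9 against 32 counts, and 2 other targets were called lower. The higher ligands were Wnt4, Wnt5a, Wnt5b, Wnt6 and Wnt7a, and the inhibitors Dkk2, Dkk3, Sfrp1 and Wif1. Wisp2 was at 6.25 against 0.847 CPM, a ratio of 7.38 (5.02 to 11.2), and Nkd2, a relative of Nkd1, at 2.003 against 0.383 CPM, a ratio of 5.23 (2.88 to 10.2). Ror2, Wnt5b and Fgf18 were called on 20 against 2, 19 against 2 and 20 against 5 counts. The smooth muscle and fibroblast markers in these cells summed to 599 and 121 CPM in the early and 159 and 32.3 CPM in the late library, and their part in these calls was not tested. In smooth muscle, Dvl3 was at 14.3 against 5.35 CPM, a ratio of 2.68 (1.27 to 6.30), and Fzd4 at 8.29 against 2.97 CPM. Sfrp2, Wif1 and Sfrp1 were called there on 12 against 0, 11 against 1 and 6 against 9 counts.

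For each member with at least 100 counts, the genes with the most similar level over 21 class and library points were listed, by Pearson's r of log2(CPM + 1) among 13347 genes. Points share libraries and depth, and these values are descriptions. Axin2 was most like Dkk3 (0.954), Bgn (0.951) and Rftn2 (0.9496), of which Dkk3 encodes a Dickkopf-family glycoprotein and Bgn the matrix proteoglycan biglycan. Lef1 was most like Adcy8 (0.961), an adenylyl cyclase gene, Lipg (0.947) and Tmem200a (0.945), and Tcf7 like Sgip1 (0.985), Gjc1 (0.976), a connexin gene, and Gng2 (0.967). Nkd1 was most like Nrp1 (0.931), the gene of a VEGF and semaphorin co-receptor, Gsdmd (0.855) and Msrb3 (0.841). Rnf43 was closest to Rab25 (0.971), a small GTPase gene of epithelia, Slc37a1 (0.966) and Marveld3 (0.964). Notum was closest to Bdh2 (0.944), Robo2 (0.912) and Tnfaip8l3 (0.898), and Lgr5 to P4ha3 (0.938), Lag3 (0.912) and Moxd1 (0.910). Sp5 was closest to Fxyd2 (0.912), Mybph (0.881) and Fabp12 (0.868). Between members, r was 0.85 for Axin2 and Tcf7, 0.78 for Lef1 and Tcf7, 0.61 for Axin2 and Lef1, and -0.84 for Axin2 and Rnf43.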

How the data were processed

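Chromium 3′ v3 libraries were deposited by the authors as raw UMI counts per gene and barcode, unfiltered, written by matrix software 3.1.0, per the file headers. Per the submitters' processing notes, reads were placed on mm10. Not given in the sources used here are the aligner, annotation release and strand setting. Files held 25610135, 49248126 and 54961019 UMIs over 27998 genes.

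Barcodes with at least 1000 UMIs and under 25% mitochondrial UMIs were kept. Classes were taken by first match: mammary (Csn3 and Wfdc18 at least 1% of UMIs), alveolar type 2 (Sftpc at least 10%), endothelial (Cldn5 and Cdh5, at least 2 UMIs), Hhip (at least 2), smooth muscle (Myh11 and Cnn1, at least 3), pericyte (Higd1b and Cox4i2, at least 2) and fibroblast (Pdgfra and Col1a2, at least 2). Cells of no class were split into leukocyte (Ptprc and Coro1a), ciliated (Foxj1 and Ccdc153) and alveolar type 1 (Rtkn2 and Akap5), at least 2 UMIs each. No doublets were removed. An alternative kept cells that met 1 rule.

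Counts were summed per class and library as CPM. Intervals are exact Poisson (levels), conditional binomial (ratios) and Clopper-Pearson (shares), and cover counting error only. Scripts used numpy 2.4.6, scipy 1.17.1 and pandas 2.3.3, and edgeR 4.0.16 gave TMM scaling as an alternative. Ratio calls were tested on simulated data. Gene positions are from GENCODE on GRCm38.

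The members, lists and comparisons were chosen with earlier results of these data known. All 10 members are named. From the pathway lists, at most 5 genes per class past 1.5-fold, farthest from no change and with at least 10 counts, are named, and for likeness the 3 nearest genes of each member with at least 100 counts, of which those of Znrf3 are not reported here. Pathway genes named for their late levels, and the ligands and inhibitors named outside this rule, were chosen after their values were seen.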

Additional observations from a re-analysis of the deposited data

Results flagged for a closer look

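Lef1 pointed opposite ways in different classes of the same pair of libraries. Early over late HER2-positive, its log2 ratio was 1.62 in alveolar type 2 cells, 1.16 in endothelial cells and -1.82 in smooth muscle. Early HER2-positive over early HER2-negative, it was 2.75 in endothelial cells and -1.10 in smooth muscle. Each class is 1 sum per library, so the difference between classes was not tested.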

How the results depend on the processing

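No paired analysis was possible because each group is 1 library. No library could be left out for the same reason. Without a count minimum, the early over late calls went from 3 to 8 higher and from 6 to 12 lower, and the early over negative calls from 2 to 11 higher and from 3 to 6 lower. Without the cell with most counts, 5 were higher early over late. Early over negative, 1 was higher with cells of 1 class rule, 1 with at least 30 counts and 1 without cells meeting the pericyte rule outside the pericyte class, an alternative chosen after seeing the data. There, 5 were lower with background RNA taken off and 5 with edgeR TMM scaling. Axin2 in smooth muscle, early over late, turned from a log2 ratio of -0.69 to 0.61 with cells of 1 class rule, on 17 and 5 counts, and the cause was not tested. Of the 3 early over late higher calls, 1 remained with cells of 1 class rule and all 3 with 500 UMIs, under 10% mitochondrial UMIs or either other scaling. Pericytes had the highest Axin2, Lef1 and Tcf7 of the classes set by the 7 marker rules in all 6 alternatives tried on levels. Notum in the negative and early libraries was highest in fibroblasts with cells of 1 class rule, and early Znrf3 in fibroblasts without the 5% of cells with most UMIs. Scaling moved a class by at most 0.11 log2 units. Shares of cells depend on the thinning depth by construction. With cells of 1 class rule, 25 of 84 levels moved beyond their intervals. Of 10 class comparisons each, the minimum of 10 counts left out 9 for Rnf43, 8 for Sp5, 8 for Apcdd1 and 7 for Lgr5.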

Other observations

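Outside the compared classes, 5, 4 and 2 cells of the negative, early and late libraries met the leukocyte rule despite the CD45-negative sort. Those of the negative and early libraries held 5 and 2 Lef1 counts and 7 and 5 Tcf7 counts, or 474 CPM (191 to 977) and 423 CPM (137 to 988) for Tcf7. Of the 5 Lef1 counts, 80% came from 1 cell.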
